A study of Mus musculus with 4 samples.

Results

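The mitochondrial ribosomal protein genes were taken as every gene whose symbol begins with Mrpl or Mrps and a digit, with pseudogenes (symbols that contain -ps) left out. The rule used names and no measured value, and gave 78 of the 54752 genes listed, of which 77 had enough counts to be among the 14330 genes tested. The symbols follow protein names, so that 1 member, Mrps36, encodes a component of the 2-oxoglutarate dehydrogenase complex in place of a ribosomal subunit, and a few mitoribosomal proteins with other symbols (Dap3, Aurkaip1, Ptcd3, Chchd1 and Gadd45gip1) are given beside the members.

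RNA of CD4+ T cells from the spleen was sequenced from 2 WT and 2 Mek1/2-tKO libraries. In Mek1/2-tKO mice the floxed Map2k1 and Map2k2 genes, which encode the kinases MEK1 and MEK2 upstream of ERK, carry loxP sites on both alleles (Map2k1 fl/fl, Map2k2 fl/fl) and are deleted by Cd4-Cre, a Cre driven by the Cd4 promoter that also acts in T cells other than CD4+ cells. The floxed alleles were made on a C57BL/6 background, and the controls are labelled WT with no further allele named. Naïve cells of both genotypes were cultured under Tfh conditions with anti-CD3, anti-CD28 and IL-6 while TGF-β, IL-4, IFN-γ and IL-2 were blocked with antibodies, and viable cells were sorted on day 3. The labels do not say whether replicates came from separate mice, so that p values measure only the spread between these libraries, which may be technical.

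Mitochondria have ribosomes of their own, made of rRNAs encoded in mitochondrial DNA and of proteins that are all encoded in the nucleus, translated in the cytosol and imported. The small subunit reads the mRNA and the large subunit forms the peptide bond, and the proteins they make are core parts of the respiratory chain and of ATP synthase. Many mitoribosomal proteins have a counterpart in bacterial ribosomes, and others are specific to mitochondria. Activated T cells are known to enlarge their mitochondria and to depend on mitochondrial translation for proliferation and cytokine production.

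Promoter windows of called members with the largest fold changes are shown first, since they are the DNA from which the transcripts described next start. Each is RefSeq sequence of GRCm38.p6, read 5′ to 3′ on the gene's strand, and runs from 150 bases before to 10 bases after the transcription start. Capitals mark every match, on either strand, to the letters CCGGAAG (the core bound by ETS factors such as GABP), GCGCATGCG (NRF1), AAGATGGCG (YY1), CACGTG (the E-box of MYC and related factors) or GGGCGG (SP1). The ETS and YY1 cores can share the letters AAG. The windows lie at chr11:59202336-59202495 on the plus strand for Mrpl55, at chr2:24975089-24975248 on the minus strand for Mrpl41, at chr6:125192050-125192209 on the plus strand for Mrpl51, and at chr14:54426759-54426918 on the plus strand for Mrpl52. Mrpl54 is not among the windows shown.
Mrpl55: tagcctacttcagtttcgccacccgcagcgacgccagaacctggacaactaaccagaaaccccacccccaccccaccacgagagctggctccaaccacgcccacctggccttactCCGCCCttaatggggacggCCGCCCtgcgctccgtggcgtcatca
Mrpl41: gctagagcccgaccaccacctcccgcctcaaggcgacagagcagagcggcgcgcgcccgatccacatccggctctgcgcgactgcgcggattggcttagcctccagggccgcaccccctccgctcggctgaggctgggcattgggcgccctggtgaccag
Mrpl51: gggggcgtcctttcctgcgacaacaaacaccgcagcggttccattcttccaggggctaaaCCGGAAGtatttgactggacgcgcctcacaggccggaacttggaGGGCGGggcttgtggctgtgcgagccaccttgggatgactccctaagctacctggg
Mrpl52: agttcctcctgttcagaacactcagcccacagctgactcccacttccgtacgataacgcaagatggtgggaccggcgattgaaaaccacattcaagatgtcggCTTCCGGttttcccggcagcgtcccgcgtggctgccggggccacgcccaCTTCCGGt

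The windows of Mrpl51 and Mrpl52 held the ETS core, at position -90 in Mrpl51 and at -47 and 3 in Mrpl52, counted from the transcription start. The window of Mrpl55 held 2 SP1 cores and no ETS core, and that of Mrpl41 held none of the motifs in the stretch shown. Over the full windows (250 bases before to 50 after a start), which were on file for 69 of the 78 members, the ETS core was present for 26 members, or 37.7%, against 9.93% of all 27025 genes with a window and 21.1% of the 9584 tested genes that had one. The YY1 core was present for 11.6% of the members, 1.64% of all genes and 3.75% of tested genes. The NRF1 core was present for 10.1%, 1.95% and 4.20% in the same order. The E-box was present for 7.25% of the members, 8.09% of all genes and 11.8% of tested genes. The SP1 core was present for 49.3%, 38.2% and 68.1%, a share of the members that was above that of all genes and below that of tested genes. These shares describe letters in a window and not sites in use.

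Genotypes were set against each other with the quasi-likelihood test of edgeR, fitted on all genes tested and adjusted after Benjamini and Hochberg. Genes are termed called where the adjusted p was below 0.05 and the fold change was 1.5 or more. Mitoribosomal protein transcripts were mostly higher in Mek1/2-tKO than in WT cells, by amounts that lay mainly below this fold threshold. The members' median log2 fold change was 0.39, a fold of 1.31, against 0.02 over all genes tested, and 70 of 77 members (90.9%, against 50.9% of all genes tested) had a fold change above 0 on the log2 scale. At both thresholds 12 members, or 15.6%, were called higher, which was no larger than the 19.3% of all genes tested that were called higher, and 0 were called lower, against 16.4% of all genes. At the adjusted p alone, 50 members (64.9%) passed as higher, against 27.8% of all genes tested. A single member, Mrps30, passed as lower, against 27.2% of all genes tested. In 62 members (80.5%) both Mek1/2-tKO libraries lay above both WT libraries, against 39.5% of all genes tested, and in 4 members both lay below, against 38.8%.

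The RNA assigned to the members added up to 5106 and 5230 CPM (counts scaled to TMM-adjusted library sizes) in the WT libraries, and in Mek1/2-tKO replicates 1 and 2 to 7174 and 6211 CPM. As a share of all counts this was 0.528 and 0.536% in WT and 0.680 and 0.616% in Mek1/2-tKO. The genotypes did not overlap, and Mek1/2-tKO replicate 1 stood above replicate 2. In that replicate 72 of the 77 tested members were higher than in Mek1/2-tKO replicate 2 (93.5%, against 49.8% of all genes tested), whereas in WT replicate 1 exceeded replicate 2 in 32 members. The median gap between replicates was 0.22 on the log2 scale in Mek1/2-tKO and 0.09 in WT. Without Mek1/2-tKO replicate 1 the members' median log2 fold change was 0.28, against -0.01 over all genes tested. In that fit 4 of the 12 called members stayed past a 1.5-fold change (Mrpl55, Mrpl41, Mrpl54 and Mrps12). Without Mek1/2-tKO replicate 2 the members' median was 0.48, against -0.01 over all genes tested. With 2 libraries per genotype the smallest two-sided p of an exact permutation test is 0.333, and the adjusted p values therefore lean on the variance that edgeR fits across genes.

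**Figure D1:**
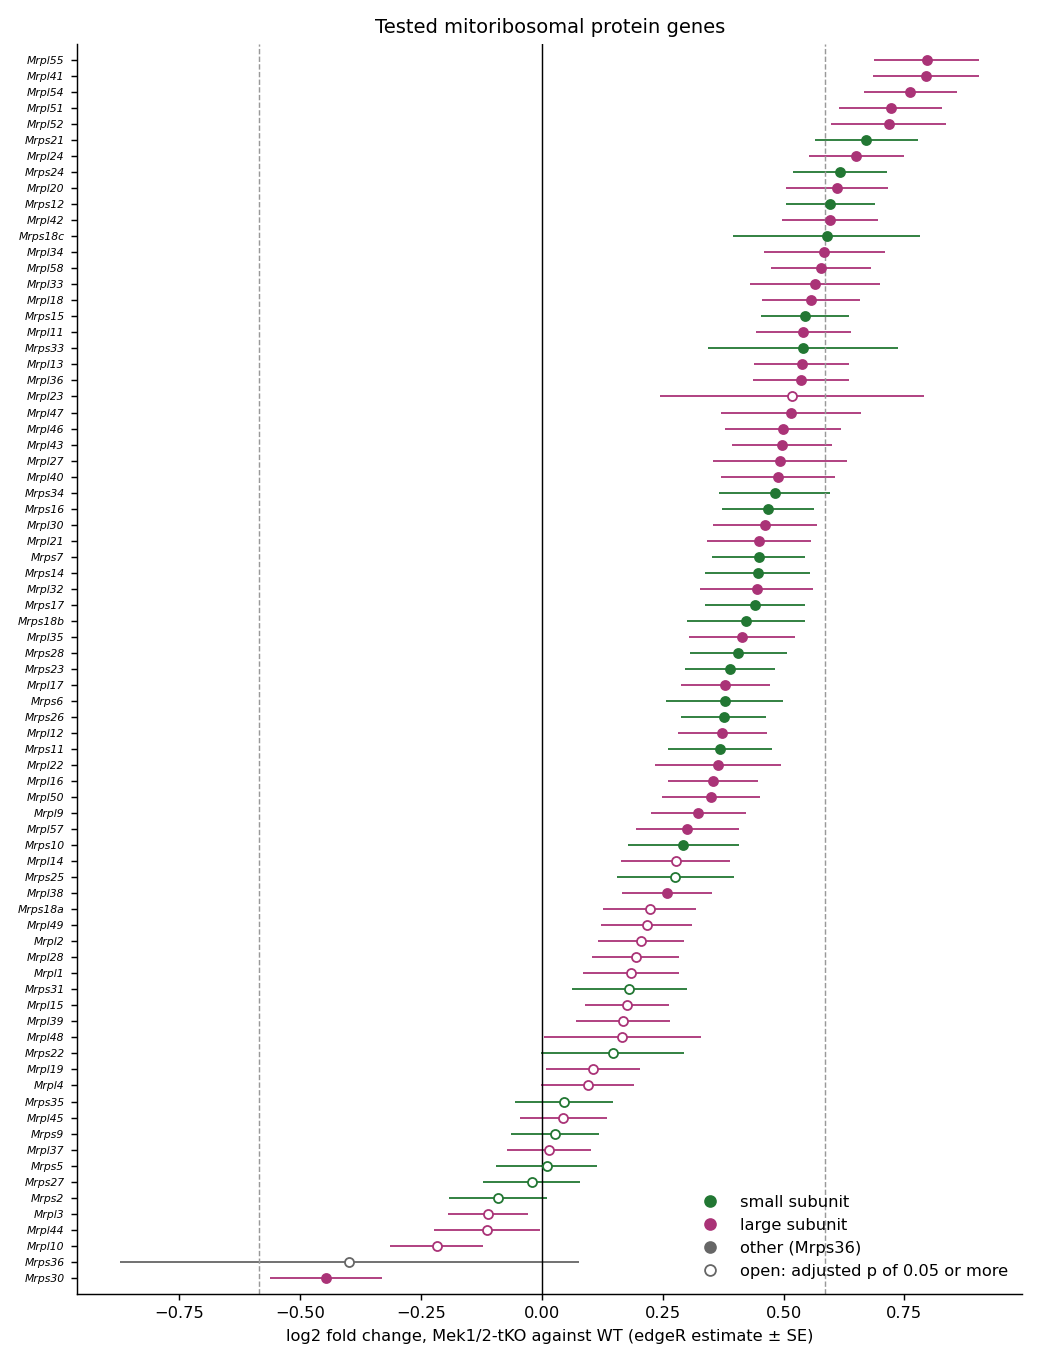
Log2 fold change (Mek1/2-tKO against WT, edgeR estimate with a standard error derived from its F statistic) of the 77 tested mitoribosomal protein genes, ordered by value and coloured by subunit. Filled points had an adjusted p under 0.05 and dashed lines mark a 1.5-fold change. 70 of the 77 points lie above 0, 12 lie past the upper line, and Mrps30 at -0.45 is the lone filled point below 0.

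The cultures also differed in transcripts used as markers of other cell types, though the cells that made them were not identified. Of 15 B-lineage markers 13 were called higher in Mek1/2-tKO and 1 (Fcer2a) lower, and their summed level was 1925 and 1893 CPM in WT and 9146 and 9045 CPM in Mek1/2-tKO. All 8 NK markers were called higher (124 and 129 against 857 and 779 CPM), as were all 4 tested of 6 gamma-delta T-cell markers (6.57 and 4.67 against 136 and 119 CPM) and all 6 tested of 10 myeloid markers (4.36 and 4.77 against 27.0 and 21.2 CPM). S100a8 and Adgre1 had 0 counts in WT. Markers with so few WT counts, S100a9 and Sox13 among them, entered the test only through Mek1/2-tKO, so that their calls follow in part from the filter. Of the untested markers, Il23r had 10 and 22 counts in WT and 8 and 10 in Mek1/2-tKO, and Fcgr1 had 4 and 4, then 4 and 2. Trdv4, Csf1r, Itgam and Mpo, also untested, had higher mean CPM in Mek1/2-tKO. Of 11 T-cell identity genes 6 were called lower and 1 higher, with sums of 2745 and 2743 CPM in WT and 2502 and 2321 CPM in Mek1/2-tKO, and Cd4, which marks the labelled cell type, was 297 and 289 CPM in WT and 18.8 and 25.1 CPM in Mek1/2-tKO. The part of this shift in the members' values was not tested, and in bulk RNA fewer cells of a type and less RNA per cell cannot be told apart. Map2k1 fell from 182 and 187 CPM to 98.0 and 105 CPM (log2 fold change -0.86, adjusted p = 1.29e-06). Map2k2 had a log2 fold change of 0.15 (adjusted p = 0.126), although a whole-gene count cannot tell a transcript without its floxed exons from a complete one. Library totals were 16330802 to 18931090 counts.

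Among the small subunit genes, 4 of 26 were called higher and 18 passed the adjusted p as higher, against 19.3% and 27.8% of all genes tested. The median log2 fold change of the 26 was 0.40. All of the 4 have bacterial counterparts. Mrps21 (chromosome 3, 95862634 to 95871519, GRCm38), the homologue of bacterial S21, had 61.7 and 64.8 CPM in WT and 111 and 90.9 CPM in Mek1/2-tKO. Its log2 fold change was 0.67 (SE 0.11, adjusted p = 0.000125). The Mek1/2-tKO libraries lay above the WT libraries but apart from each other.

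Mrps24 (chromosome 11, 5703983 to 5715680), the homologue of bacterial S3 at the mRNA entry, had 92.6 and 91.4 CPM in WT and 154 and 128 CPM in Mek1/2-tKO, with a log2 fold change of 0.62 (SE 0.10, adjusted p = 0.000123). Of its exon bases 15.4% are shared with Urgcp on the same strand, so that part of its reads cannot be assigned to either gene with certainty. Mrps12 (chromosome 7, 28739641 to 28741820), whose bacterial homologue S12 lies at the decoding centre, had 59.4 and 63.0 CPM in WT and 93.2 and 91.9 CPM in Mek1/2-tKO. The pairs agreed closely within each genotype and did not overlap (log2 fold change 0.60, SE 0.09, adjusted p = 0.000103). Mrps18c (chromosome 5, 100798627 to 100804471), a homologue of bacterial S18, was the least abundant call, with 8.93 and 7.94 CPM in WT and 13.8 and 11.6 CPM in Mek1/2-tKO. Its log2 fold change of 0.59 (SE 0.19, adjusted p = 0.0192) was the call nearest to the threshold, its exons overlap those of Gm43511 on the same strand over 23.2% of their bases, and DESeq2 did not call it (adjusted p = 0.0830).

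The large subunit had 51 genes, 50 of them tested, with 8 called higher, 32 passing the adjusted p as higher and 1 passing as lower. Over all genes tested 19.3% were called higher, and 27.8% and 27.2% passed as higher and lower. The median log2 fold change of the subunit was 0.40. The 5 largest fold changes of all members were in this subunit. Mrpl55 (chromosome 11, 59202486 to 59206134), the homologue of bacterial L31, had 32.4 and 36.0 CPM in WT and 57.5 and 61.3 CPM in Mek1/2-tKO, a log2 fold change of 0.80 (SE 0.11, adjusted p = 3.53e-05). It was the lone call in which Mek1/2-tKO replicate 2 was the higher replicate.

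Mrpl41 (chromosome 2, 24974117 to 24975098), a protein specific to mitochondrial ribosomes, had 50.9 and 56.7 CPM in WT and 102 and 84.9 CPM in Mek1/2-tKO, with a log2 fold change of 0.79 (SE 0.11, adjusted p = 3.85e-05). Mrpl54 (chromosome 10, 81264713 to 81266934), also specific to mitochondria, had 77.4 and 87.4 CPM in WT and 149 and 131 CPM in Mek1/2-tKO, with a log2 fold change of 0.76 (SE 0.10, adjusted p = 1.80e-05). In both genes each Mek1/2-tKO library exceeded each WT library by more than the replicates differed. Mrpl51 (chromosome 6, 125191801 to 125196269), whose window above holds an ETS and an SP1 core, had 74.7 and 74.2 CPM in WT and 137 and 109 CPM in Mek1/2-tKO (log2 fold change 0.72, SE 0.11, adjusted p = 6.86e-05). Mrpl52 (chromosome 14, 54426909 to 54429756), with ETS cores on either side of its start, had 93.6 and 101 CPM in WT and 184 and 136 CPM in Mek1/2-tKO (log2 fold change 0.72, SE 0.12, adjusted p = 0.000181). Its Mek1/2-tKO replicates stood far apart, and the fold change was 0.49 on the log2 scale without replicate 1.

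Mrpl24 (chromosome 3, 87919506 to 87923672), the homologue of bacterial L24, had 66.9 and 65.7 CPM in WT and 112 and 96.4 CPM in Mek1/2-tKO, with a log2 fold change of 0.65 (SE 0.10, adjusted p = 8.36e-05). It shares 26.3% of its exon bases with Rrnad1 on the other strand, and whether counting used the strand is not stated. Mrpl20 (chromosome 4, 155802878 to 155809975), the homologue of the bacterial assembly protein L20, had 128 and 137 CPM in WT and 228 and 178 CPM in Mek1/2-tKO, with a log2 fold change of 0.61 (SE 0.11, adjusted p = 0.000249). Mrpl42 (chromosome 10, 95480805 to 95501940), specific to mitochondria, had 65.5 and 65.1 CPM in WT and 106 and 91.5 CPM in Mek1/2-tKO (log2 fold change 0.60, SE 0.10, adjusted p = 0.000186). In all of these genes the Mek1/2-tKO libraries lay above the WT libraries.

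**Figure D2:**
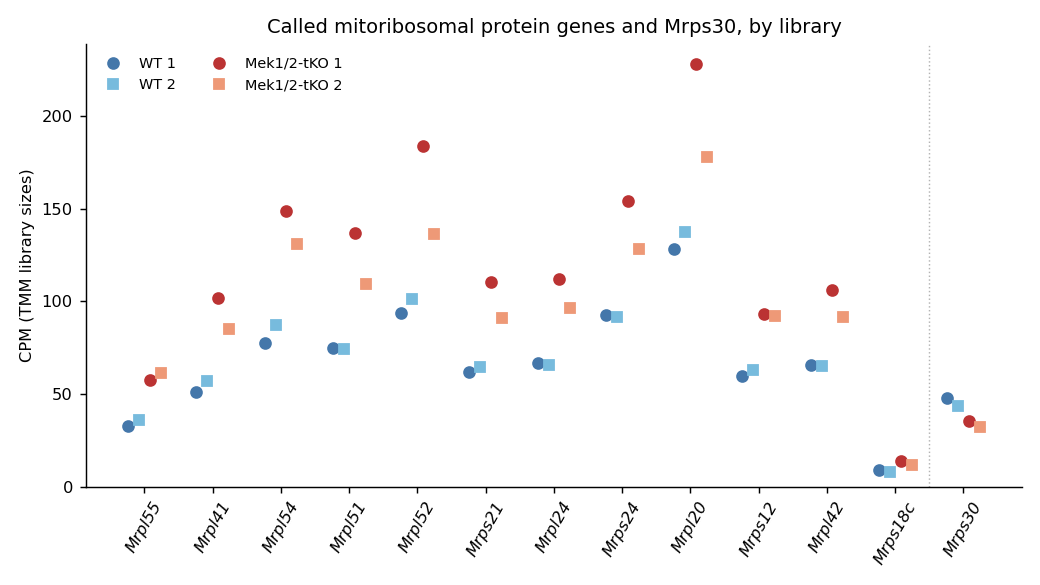
CPM of each library for the 12 members called higher and, right of the dotted line, Mrps30, with WT in blue and Mek1/2-tKO in red and orange (circles replicate 1, squares replicate 2). In each of the 12 the red and orange points lie above the blue ones, and in 11 of them replicate 1 is the higher Mek1/2-tKO library, while in Mrps30 the order of the genotypes is turned round.

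The fold threshold cut through a continuous range. Just outside it lay Mrpl34, the homologue of bacterial L34, with 60.9 and 63.5 CPM in WT and 108 and 79.3 CPM in Mek1/2-tKO (log2 fold change 0.58, adjusted p = 0.00137), and Mrpl58, a peptidyl-tRNA hydrolase built into the large subunit that releases stalled ribosomes, with 49.3 and 45.4 CPM in WT and 74.1 and 67.3 CPM in Mek1/2-tKO (log2 fold change 0.58, adjusted p = 0.000342). In both, the Mek1/2-tKO libraries lay above the WT libraries. The 38 members that passed the adjusted p as higher without reaching the fold threshold had log2 fold changes between 0.26 and 0.58. When a log2 fold change of at least 0.32 was asked for in place of the 1.5-fold threshold, 47 members were called higher and 1 lower. The shares of all genes tested at this threshold were not computed. They cannot exceed the 27.8% and 27.2% that passed the adjusted p alone as higher and lower.

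The other 26 tested members did not pass the adjusted p in either direction, and their log2 fold changes lay between -0.40 (Mrps36) and 0.52 (Mrpl23). The smallest values among well expressed members belonged to Mrps5, Mrpl37 and Mrps27. Mrps5, whose bacterial homologue S5 takes part in decoding fidelity, had 66.7 and 65.8 CPM in WT and 72.3 and 61.2 CPM in Mek1/2-tKO (log2 fold change 0.01, SE 0.10, adjusted p = 0.942). Mrpl37 had 92.5 and 98.2 CPM in WT and 95.1 and 97.5 CPM in Mek1/2-tKO (log2 fold change 0.01, SE 0.09, adjusted p = 0.902). Mrps27 had 54.2 and 54.3 CPM in WT and 54.8 and 52.1 CPM in Mek1/2-tKO (log2 fold change -0.02, SE 0.10, adjusted p = 0.873). In all of these genes the genotypes overlapped.

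Of the 4 members in which both Mek1/2-tKO libraries lay below both WT libraries, Mrps30 passed the adjusted p and Mrpl10, Mrpl3 and Mrps2 did not (log2 fold changes of -0.22, -0.11 and -0.09). Despite its symbol Mrps30 belongs to the large subunit, where it is specific to mitochondria. It had 48.0 and 43.3 CPM in WT and 35.1 and 31.9 CPM in Mek1/2-tKO, which placed both Mek1/2-tKO libraries below the WT pair, at a log2 fold change of -0.45 (SE 0.12, adjusted p = 0.00488), a fold of 0.734. With the length trend taken out its value was -0.16. Mrps30 and the other genes of this group of 4 were singled out after their values were seen. The log2 fold change of Mrps30 ranged from -0.52 to -0.37 when 1 library was left out, and it did not pass without WT replicate 1 (adjusted p = 0.0735).

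Sorting the proteins by ancestry, the 46 members with a bacterial counterpart had a median of 0.44 on the log2 scale, and 7 of them were called and 33 passed the adjusted p as higher. The 30 tested of 31 mitochondria-specific members had a median of 0.33, with 5 called and 17 passing as higher. In the small subunit the 16 members with a bacterial counterpart (median 0.44, 13 passing as higher) and the 10 mitochondria-specific members (median 0.33, 5 passing) stood in the same order. In the large subunit the medians were 0.43 over 30 and 0.33 over 20 genes. Over all genes tested 19.3% were called higher and 27.8% passed as higher. The difference by ancestry was not tested.

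Per kilobase of exon, members spanned a 132-fold range of mean level, from 1.02 to 135 RPKM (CPM divided by the length of the gene's merged exons in kilobases), with a median of 25.9 RPKM in WT and 32.1 RPKM in Mek1/2-tKO. The order of the members hardly differed between genotypes, with a Spearman correlation of 0.98 across the 77 genes, which share their libraries and their lengths. The 3 highest were Mrpl54, Mrpl34 and Mrpl52. Mrpl54 had 99.9 ± 8.58 RPKM in WT and 170 ± 15.2 RPKM in Mek1/2-tKO (SD, n = 2 each). The lowest tested were Mrpl23 at 1.02 RPKM, Mrps36 at 1.28 RPKM and Mrpl48 at 3.47 RPKM, a mean over all 4 libraries.

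Mrpl23 had 4.72 and 3.48 CPM in WT and 5.94 and 5.80 CPM in Mek1/2-tKO, with a log2 fold change of 0.52 that did not pass at this depth (SE 0.27, adjusted p = 0.126). Mrps36 had 1.74 and 1.97 CPM in WT and 1.03 and 1.76 CPM in Mek1/2-tKO (log2 fold change -0.40, SE 0.47, adjusted p = 0.500). Mrpl48 had 28.6 and 24.6 CPM in WT and 35.3 and 24.7 CPM in Mek1/2-tKO, which overlapped. Mrpl53 was not tested, since it had 0 counts in every library. Of its exon bases 88.0% are shared with Gm42688 on the same strand. Reads there may not have been assigned to it, so that the 0 counts set no upper limit on its level.

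**Figure D3:**
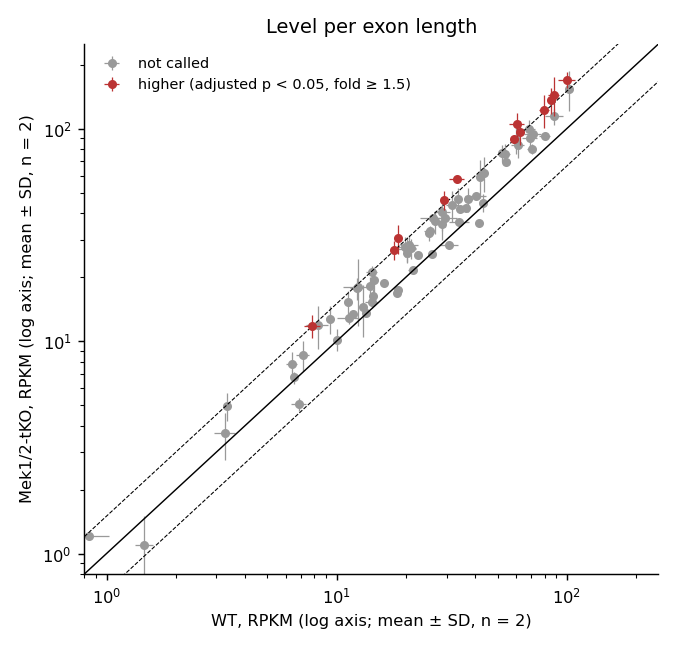
Mean RPKM of the 77 tested members in Mek1/2-tKO against WT on log axes, with SD bars (n = 2 libraries each), the line of equality (solid) and lines of 1.5-fold change (dashed). Calls, in red, are found from Mrps18c at the low end to Mrpl54 at the high end, and most grey points lie between the line of equality and the upper dashed line.

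Genes with short exons tended to have higher fold changes throughout these libraries, and the members' median exon length of 2255 bases was below that of all genes tested. Exon length here is that of all annotated exons of a gene merged, and it can exceed the length of any single transcript. For Mrpl32 the merged exons, of 4982 bases, cover the whole gene. The log2 fold change and exon length had a Spearman correlation of -0.39 across the 77 members and of -0.39 across all genes tested, which share the same libraries. Members with exon lengths of 607 to 1664 bases had a median log2 fold change of 0.50 over 26 tested genes, against 0.38 over the 2035 tested genes in that range. Between 1667 and 3291 bases the medians were 0.37 for 25 members and 0.18 for 3311 genes. Between 3332 and 8631 bases they were 0.28 for 26 members and -0.18 for 6201 genes. The gap between members and other genes was thus widest among genes with long merged exons, whose transcripts need not be long. With the length trend over all genes taken out, the members' median was 0.24 against 0.02 over all genes, and 64 of 77 members stayed above 0. All 12 called members stayed above 0, and 2 of them stayed past a 1.5-fold change (Mrpl51 at 0.79 and Mrpl42 at 0.62). Members that had not been called also lay past it on this scale. They were Mrpl33 (0.88), Mrpl13 (0.87), Mrps17 (0.71), Mrpl17 (0.70), Mrpl23 (0.69), Mrpl47 (0.63), Mrps10 (0.63) and Mrpl32 (0.62).

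The length relation also differed between replicates. Genes in the short range took 15.3% of the counts in each WT library and 21.3 and 19.7% in Mek1/2-tKO replicates 1 and 2. The log2 difference between the Mek1/2-tKO replicates had a Spearman correlation with exon length of -0.24 across all genes tested and of 0.06 across the members. For the WT replicates the correlations were 0.03 across all genes tested and 0.36 across the members. The part of exon or transcript length in the members' fold changes was not tested further.

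**Figure D4:**
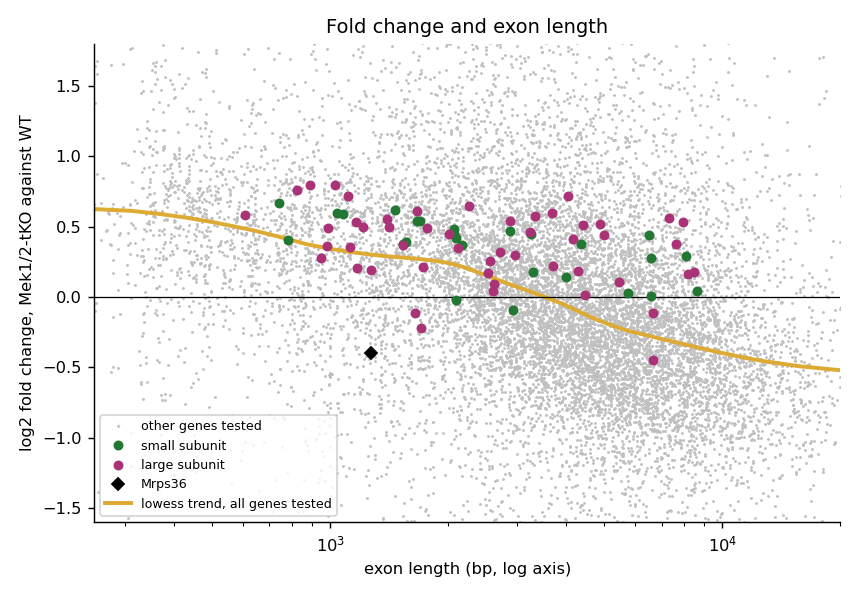
Log2 fold change against exon length (log axis) for the tested members, by subunit, and the other genes tested (grey, those within the plotted range), with the lowess trend over all genes tested. The trend falls from above 0 for short genes to below 0 for long ones, and most members lie on or above it, farthest above at lengths over 3332 bases.

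The 46 tested members whose exons overlap no other gene had a median of 0.38 on the log2 scale. Of these 46, 8 were called and 29 passed the adjusted p as higher, against 19.3% and 27.8% of all genes tested. Members lie on 17 chromosomes, with 11 on chromosome 11. The lone pair within 50 kb of each other was Mrpl46 and Mrps11 on chromosome 7, which start head to head and overlap by 413 bases, with log2 fold changes of 0.50 and 0.37. By promoter letters, the 25 tested members with an ETS core had a median log2 fold change of 0.47 and 20 passing as higher, and the 43 with a window but no ETS core had a median of 0.37 and 25 passing. The 7 members with an NRF1 core had a median of 0.36, against 0.44 without it, and the 8 with a YY1 core 0.39, against 0.41. The 5 with an E-box had a median of 0.54, against 0.39 without it, and the 34 with an SP1 core 0.44, against 0.37. These differences were not tested.

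Mitoribosomal proteins with other symbols did not share one direction. Dap3, a GTP-binding protein of the small subunit, had 131 and 135 CPM in WT and 92.7 and 85.4 CPM in Mek1/2-tKO, with a log2 fold change of -0.58 (SE 0.09, adjusted p = 7.83e-05) that fell just short of the fold threshold. Aurkaip1, also of the small subunit, was called higher, with 126 and 125 CPM in WT and 204 and 176 CPM in Mek1/2-tKO (log2 fold change 0.59, SE 0.09, adjusted p = 7.00e-05). Of the other members of this list of 5, Chchd1 had a log2 fold change of 0.56 (adjusted p = 0.00252), Ptcd3 of -0.43 (adjusted p = 0.00124) and Gadd45gip1 of 0.12 (adjusted p = 0.329). Dap3 and Ptcd3 have exons of 6483 and 6841 bases in total and the other 3 of 909 to 2494 bases. With the length trend taken out the values were -0.30 for Dap3, -0.13 for Ptcd3, 0.33 for Aurkaip1, 0.20 for Chchd1 and -0.04 for Gadd45gip1.

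The cytosolic ribosomal protein genes, matched by symbol, were also mostly higher. Of 84 tested, 40 were called higher and 0 lower, against 19.3% and 16.4% of all genes tested. At the adjusted p alone 69 passed as higher, against 27.8%. The median log2 fold change of the 84 was 0.58, or 0.35 with the length trend taken out. Their summed level was 34163 and 34692 CPM in WT and 52433 and 44925 CPM in Mek1/2-tKO, with replicate 1 again the higher of the Mek1/2-tKO libraries. The difference between these genes and the mitoribosomal genes was not tested.

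The 4 lists of nuclear genes that work with the mitoribosome had median log2 fold changes between -0.19 and 0.19. The counts called in these lists stand beside 19.3% called higher and 16.4% called lower over all genes tested. Of 29 tested genes of mitoribosome assembly and rRNA processing, 2 were called higher and 1 lower, with a median log2 fold change of -0.03. The transcription terminator family member Mterf3 (16.7 and 19.6 against 33.1 and 27.3 CPM in WT and Mek1/2-tKO, log2 fold change 0.73) and the RNase P subunit Trmt10c (43.1 and 38.0 against 65.9 and 58.1 CPM, log2 fold change 0.61) rose, and the RNA helicase Dhx30 (130 and 136 against 79.8 and 93.7 CPM, log2 fold change -0.62) fell. Of 14 tested translation factors, 1 was called higher (Mtrf1, a release factor, 0.77 on the log2 scale) and 2 lower (Gfm2, a recycling factor, -0.78, and Lrpprc, which stabilises mitochondrial mRNAs, -0.73). The call of Mtrf1 was lost with DESeq2 (adjusted p = 0.0644) and without WT replicate 2 (adjusted p = 0.0793). The median of that list was -0.07.

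Of 20 mitochondrial aminoacyl-tRNA synthetases, 0 were called higher and 5 lower, with a median log2 fold change of -0.19. Vars2, the valine enzyme, had 29.9 and 35.2 CPM in WT and 18.7 and 19.6 CPM in Mek1/2-tKO (log2 fold change -0.76, adjusted p = 0.000327), and Iars2, the isoleucine enzyme, had 135 and 142 CPM and then 79.8 and 84.3 CPM (log2 fold change -0.75, adjusted p = 7.06e-06). Of 9 genes of mitochondrial transcription and DNA maintenance, 2 were called higher (Ssbp1, which coats single-stranded mitochondrial DNA, 0.74, and Mterf1a 0.69) and 1 lower (Polg, the mitochondrial DNA polymerase, -0.84). The call of Mterf1a was lost with DESeq2 (adjusted p = 0.0778) and without WT replicate 2 (log2 fold change 0.51, adjusted p = 0.146). Exons in these lists are longer than those of the members, with median lengths of 3479 to 5174 bases against 2255 bases. With the length trend taken out their medians were -0.06, -0.02, -0.10 and 0.09, against 0.24 for the members.

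Of the 13 protein-coding genes of the mitochondrial genome, which mitoribosomes translate, 7 were called higher and 0 lower, against 19.3% and 16.4% of all genes tested. At the adjusted p alone 12 passed as higher, against 27.8%, and the median log2 fold change of the 13 was 0.64. The largest values were those of mt-Atp6, an ATP synthase subunit, with 44.8 and 47.5 CPM in WT and 122 and 97.1 CPM in Mek1/2-tKO (2.37-fold, adjusted p = 9.27e-07), and of mt-Co3, a cytochrome c oxidase subunit (2.12-fold, adjusted p = 1.88e-06). Among the most abundant of the 13, mt-Co1 and mt-Nd1 (mean 6768 and 2468 CPM in WT) had log2 fold changes of 0.41 and 0.44 and were not called. mt-Cytb (mean 2351 CPM in WT) was called at 0.88. Only uniquely mapping reads were counted, and how much that took from each of these genes was not tested. The 13 genes are short, and with the length trend taken out their median was 0.14. With GC content taken out as well it was -0.05, below 0. Neither rRNA of the mitoribosome passed the test. mt-Rnr1, the rRNA of the small subunit, had 281 and 280 CPM in WT and 314 and 261 CPM in Mek1/2-tKO (log2 fold change 0.03, SE 0.09, adjusted p = 0.783), and mt-Rnr2, that of the large subunit, had 561 and 562 CPM in WT and 580 and 495 CPM in Mek1/2-tKO (log2 fold change -0.06, SE 0.08, adjusted p = 0.555). The genotypes overlapped for both. The libraries were made with an mRNA kit, so that rRNA values depend on what that selection kept.

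Against 19.3% and 16.4% of all genes tested, 0 of 13 tested nuclear regulators known to act on mitochondrial genes were called higher and 5 lower. Their median log2 fold change was -0.47, but their exons are long (median 6418 bases), and with the length trend taken out the median was -0.14. Myc, which drives ribosome and mitochondrial biogenesis in activated T cells, had 264 and 289 CPM in WT and 112 and 130 CPM in Mek1/2-tKO (log2 fold change -1.19, SE 0.09, adjusted p = 1.31e-07). Hcfc1, a cofactor of several promoter-bound factors, had 204 and 222 CPM in WT and 93.7 and 111 CPM in Mek1/2-tKO (log2 fold change -1.06, SE 0.09, adjusted p = 6.84e-07). For the other factors behind the motifs above, the log2 fold change was -0.47 for Gabpa (82.2 and 72.5 against 53.7 and 58.2 CPM, adjusted p = 0.00174), -0.29 for Yy1 (161 and 180 against 139 and 140 CPM, adjusted p = 0.00932) and -0.19 for Nrf1 (86.8 and 88.8 against 75.8 and 78.2 CPM, adjusted p = 0.0892). It was -0.49 for Sp1 (98.3 and 90.9 against 65.1 and 69.8 CPM, adjusted p = 0.000643), which was added after its value was seen. With the length trend taken out these values were -0.23 for Gabpa, -0.02 for Yy1, 0.21 for Nrf1 and -0.14 for Sp1, so that the direction of Nrf1 turned. Ppargc1a, which encodes the coactivator PGC-1α, was not tested and had 0 counts in both WT libraries and 14 and 6 counts in Mek1/2-tKO. Over all 105 tested genes of these pathway lists, 13 were called higher and 14 lower, against 19.3% and 16.4% of all genes tested. The median log2 fold change of the 105 was -0.06.

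**Figure D5:**
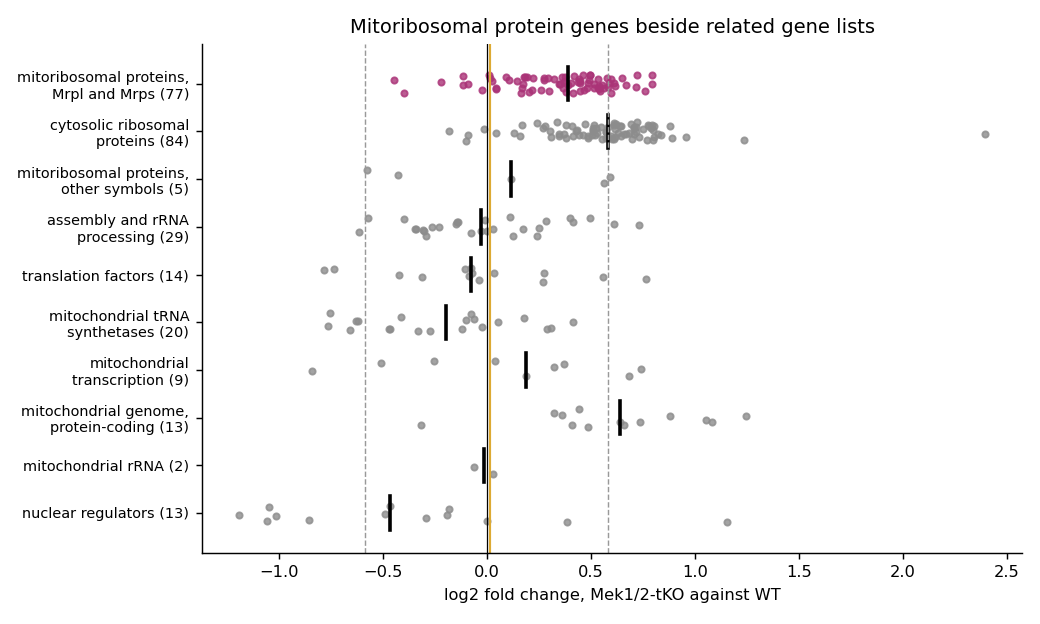
Log2 fold change of each tested gene (points, jittered vertically, number of genes in brackets) in the mitoribosomal protein genes (purple) and in related lists (grey), with list medians as black bars, the median of all genes tested as a yellow line and 1.5-fold changes as dashed lines. The medians of the mitoribosomal (0.39), cytosolic ribosomal (0.58) and mitochondrially encoded protein genes (0.64) lie to the right, and that of the nuclear regulators (-0.47) to the left, all without any correction for exon length.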

How the data were processed

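Per the labels and the study's methods, the authors trimmed read pairs of a stranded mRNA kit with Trimmomatic 0.36, mapped them to GRCm38 and deposited, per gene, the raw count of uniquely mapping reads from featureCounts (Subread 1.5.1). The annotation release and strand setting are not given in the sources used here. Symbols were matched to 54723 of 54752 identifiers. Library totals were 16330802 to 18931090 counts, and 3 counts equal 0.159 to 0.184 CPM, covering counting error only.

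Counts were analysed in R 4.3.3 with edgeR 4.0.16 (filterByExpr, TMM, robust quasi-likelihood fit, genotype only) over all genes, after a check on simulated counts. Standard errors (SE) were derived from that fit, as the absolute log2 fold change divided by the square root of the F statistic. Lists were read from the same fit as counts and medians. Alternatives were DESeq2 1.42.0, other scalings, filters and thresholds, a likelihood-ratio test, a replicate block, leaving out each library, and length and GC trends (lowess, statsmodels 0.14.6, span 0.3).

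Members and lists were chosen with earlier results of these data known. Named genes were the called members, those nearest the fold threshold, of highest and lowest RPKM and of smallest change, untested members, the 2 largest calls per direction in each list, and a fixed set of regulators and rRNAs. Promoters were RefSeq windows of GRCm38.p6.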

Additional observations from a re-analysis of the deposited data

How the results depend on the processing

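The members' median log2 fold change was above 0 under every alternative and no called member changed sign. Leaving out 1 library at a time moved it between 0.28 and 0.48, the number of members called higher between 4 and 27, and the number passing the adjusted p as lower between 0 and 2. The lowest median came without Mek1/2-tKO replicate 1 and the highest without Mek1/2-tKO replicate 2. Without Mek1/2-tKO replicate 1 only 4 of the 12 called members stayed past a 1.5-fold change. With library size alone as scaling, which put the median of all genes at -0.07, the members' median was 0.30. There 5 members were called higher (Mrpl55, Mrpl41, Mrpl54, Mrpl51 and Mrpl52), against 2388 of the 14330 genes tested, and 2 passed the adjusted p as lower. With no fold threshold 50 members were higher and 1 lower, and 27 pathway genes were higher and 28 lower, against 27.8% and 27.2% of all genes tested. At a log2 fold change of at least 0.32 the counts were 47 and 1, and 25 and 24, and the shares over all genes were not computed. The members' median was 0.24 with the exon length trend taken out, and 0.24 with GC content also taken out, which was added after seeing the data. DESeq2 kept 11 of the 12 calls, no filter 10, and the likelihood-ratio test, DESeq2's size factors and the filter of 10 counts in every library all 12. A replicate block kept all 12 calls, with a median of 0.39. Deviations of libraries that share a number across genotypes had a correlation of -0.03 over the genes tested. With 2 libraries per genotype this cannot show whether the replicates were paired. The causes of these shifts were not tested.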
